A study of Mus musculus with 10 samples.

Results

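Slc2a1, Tagln, Notch3, Kcnj13 and Rarres2 are 5 genes that stand for the vessels and the fluid-facing linings of the brain, set here against 2019 genes that could be tested and 53090 gene IDs counted in all. They were taken as marker genes of endothelium (Slc2a1), of mural cells of the vessel wall (Tagln and Notch3), of the choroid plexus (Kcnj13) and of the ependyma (Rarres2). The samples were small pieces of dissected cortex from 10 mice on a C57BL/6 background, with 1 library per animal. The 5 dTPR/dTPR mice were homozygous for an allele that removes the TPR1 domain of STI1, and were 541 to 630 days old. The 5 wt/wt mice carried the intact protein and were 442 to 663 days old. STI1 is the co-chaperone that links HSP70 to HSP90, and the study compared the transcriptomes of these mice. The animals were separate, a piece was taken from part of 1 hemisphere, and the labels give no sex, sequencing date or batch.

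Cerebral endothelial cells form the blood-brain barrier, and Slc2a1 encodes GLUT1, which carries glucose across it. Mural cells, meaning pericytes and smooth muscle cells, wrap those vessels; Tagln encodes transgelin, an actin-binding protein of smooth muscle, and Notch3 a receptor through which mural cells respond to endothelial Notch ligands. The choroid plexus secretes cerebrospinal fluid into the ventricles, and its epithelium carries the inward rectifier potassium channel Kir7.1, encoded by Kcnj13. Ependymal cells line the ventricles with beating cilia, and Rarres2 encodes chemerin, a secreted chemoattractant. Choroid plexus and ependyma lie outside the cortex, while vessels run through it and larger arteries cover its surface.

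Most counts fell at gene IDs that lie antisense to a known gene: 94.2% were at IDs with an exon facing one of another gene. Each of the 5 genes was therefore read from the ID that faces it, provided that no less than 90% of the facing exon sequence was its own (GENCODE M21, build GRCm38). Slc2a1 (ENSMUSG00000028645.11, chromosome 4, 119108711 to 119137983, plus strand) was read from 737 counts at the antisense RNA Gm12868, which shares 105 bases with it. Tagln (ENSMUSG00000032085.5, chromosome 9, 45929619 to 45936058, minus strand) was read from 1468 counts at the antisense RNA Gm48529, with 1241 shared bases. Notch3 (ENSMUSG00000038146.7, chromosome 17, 32120820 to 32166852, minus strand) was read from 255 counts at the antisense RNA Gm17276, with 488 shared bases. Kcnj13 (ENSMUSG00000079436.3, chromosome 1, 87386363 to 87394729, minus strand) lies inside Gigyf2 on the other strand and was read from 320 counts at the Gigyf2 ID, with 623 shared bases. Rarres2 (ENSMUSG00000009281.6, chromosome 6, 48569696 to 48572789, minus strand) was read from 414 counts at the ID of its neighbour Lrrc61, with 892 shared bases.

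These shared stretches are the window through which each gene was seen, so part of each is shown for Tagln, Notch3, Kcnj13 and Rarres2 as coding sequence in the direction of the gene, 5′ to 3′. The shared exon bases were 62.4% of the exon bases of Tagln, 49.1% of Kcnj13, 33.6% of Rarres2, 6.03% of Notch3 and 2.99% of Slc2a1. Within the coding sequence they were all 603 coding bases of Tagln, 51.0% of the 1080 of Kcnj13, 41.7% of the 489 of Rarres2, 7.11% of the 1476 of Slc2a1 and 7.02% of the 6954 of Notch3. Capitals mark bases that face an exon of the counted ID, and lower case marks neighbouring coding bases that do not. The stretches come from the GENCODE M21 transcripts, and those of Tagln and Kcnj13 start at the start codon.
Tagln: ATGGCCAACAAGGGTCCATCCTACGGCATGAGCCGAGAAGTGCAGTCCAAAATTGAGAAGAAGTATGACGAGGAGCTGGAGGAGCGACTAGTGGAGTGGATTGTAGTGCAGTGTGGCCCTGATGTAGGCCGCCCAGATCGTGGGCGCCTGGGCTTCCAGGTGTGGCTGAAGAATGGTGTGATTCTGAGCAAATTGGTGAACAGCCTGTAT
Notch3: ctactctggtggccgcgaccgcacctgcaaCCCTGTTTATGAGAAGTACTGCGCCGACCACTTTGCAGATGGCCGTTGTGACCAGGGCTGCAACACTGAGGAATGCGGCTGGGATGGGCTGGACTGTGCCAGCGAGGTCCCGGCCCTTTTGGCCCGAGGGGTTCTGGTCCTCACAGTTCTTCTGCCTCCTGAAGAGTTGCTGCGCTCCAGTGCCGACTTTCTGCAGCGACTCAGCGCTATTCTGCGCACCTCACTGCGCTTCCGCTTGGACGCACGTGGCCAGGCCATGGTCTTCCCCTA
Kcnj13: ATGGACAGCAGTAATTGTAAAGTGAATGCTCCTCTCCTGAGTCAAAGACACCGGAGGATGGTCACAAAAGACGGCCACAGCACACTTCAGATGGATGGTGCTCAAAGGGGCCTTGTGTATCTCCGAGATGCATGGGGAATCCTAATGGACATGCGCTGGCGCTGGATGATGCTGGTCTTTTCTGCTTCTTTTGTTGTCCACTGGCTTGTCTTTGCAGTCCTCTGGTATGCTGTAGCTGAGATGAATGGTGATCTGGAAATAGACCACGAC
Rarres2: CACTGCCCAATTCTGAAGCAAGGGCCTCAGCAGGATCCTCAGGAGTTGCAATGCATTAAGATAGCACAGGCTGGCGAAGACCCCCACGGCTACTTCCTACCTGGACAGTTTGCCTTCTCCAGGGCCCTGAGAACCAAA

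**Figure D1:**
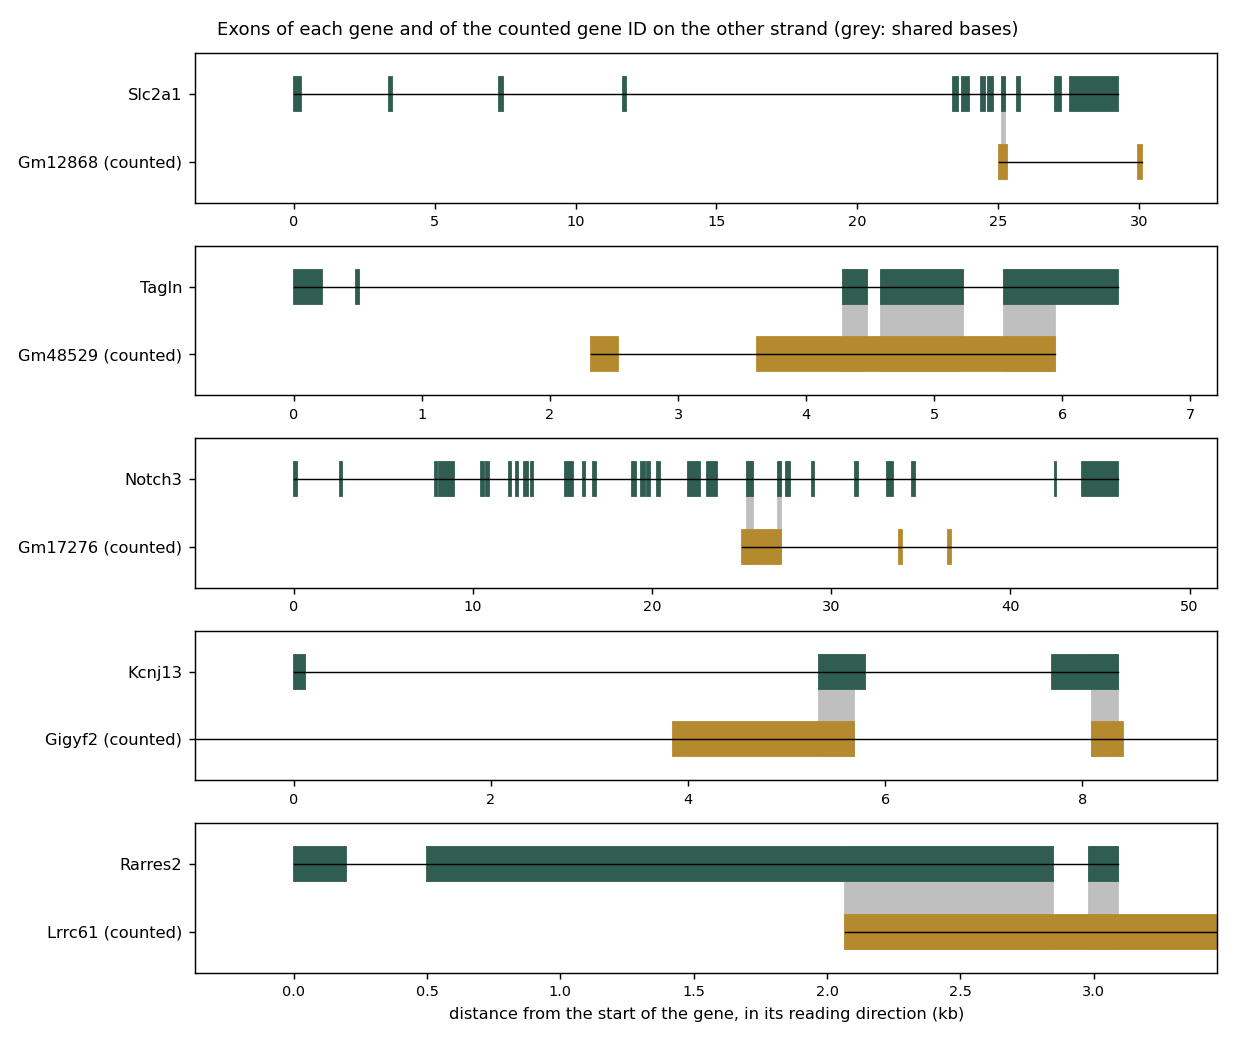
Each panel draws the exons of a gene (upper row) and of the counted gene ID on the other strand (lower row) against the distance in kb from the start of the gene, with shared bases in grey. Gm48529 covers 1241 bases of Tagln, whereas Gm12868 meets a single Slc2a1 exon of 105 bases.

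Counts at an ID include reads outside the shared bases, and the share of these was not tested. The IDs are longer than the window in every case: the shared bases were 48.9% of the exon bases of Gm48529, 30.6% of Lrrc61, 25.2% of Gm12868, 15.5% of Gm17276 and 4.38% of Gigyf2. The 5 genes also differ in what was counted at their own IDs, which under the same reading would hold transcripts of the other strand. Own-ID counts over the 10 libraries were 75 for Slc2a1, 477 for Tagln and 10 for Kcnj13, each fewer than at the facing ID. For Notch3 and Rarres2 the own IDs held more, 819 and 805 counts. In tissue of this kind, fewer cells of a type and less RNA per cell cannot be told apart, for these or any other genes.

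Library totals were 689226 to 924559 counts in dTPR/dTPR and 667751 to 927242 in wt/wt mice, which is shallow. Levels are given as CPM, which scales each library to the same sum of counts at tested genes with TMM factors, and 3 counts were worth between 3.66 and 4.97 CPM. Reads were not tagged by molecule, so counting intervals and this floor cover counting error only. Among the defining markers of the same cell types most could not be read, because no facing ID was assigned to them. This held for 30 of 36 endothelial, 19 of 27 mural, 24 of 27 choroid plexus and 30 of 38 ependymal list genes. Ttr, Folr1 and Clic6 of choroid plexus and Foxj1 of ependyma are among these, and their own IDs were at 0 counts. The label of the tissue could be checked on few genes: of 22 cortical neuron markers 4 were tested, among them Tshz2 and Neurod1, and these were counted in every library.

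Slc2a1 was at 213.3, 123.9, 54.3, 139.5 and 75.4 CPM in dTPR/dTPR animals 1 to 5, against 160.5, 59.3, 81.5, 81.1 and 74.5 CPM in wt/wt animals 1 to 5. The groups overlapped; the highest library of all was dTPR/dTPR animal 1, and in wt/wt mice animal 1 lay far above the other 4, which kept within 59.3 to 81.5 CPM. The log2 fold change of dTPR/dTPR over wt/wt was 0.41 ± 0.37 (SE), with an adjusted p of 0.999 in edgeR's quasi-likelihood test. Without dTPR/dTPR animal 1 the log2 fold change was 0.11, and without wt/wt animal 1 it was 0.72, so animals 1 of both groups moved it by more than 1.5 times.

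Nos3, the endothelial nitric oxide synthase, was the other tested gene of the endothelial list. It averaged 36.0 ± 23.4 CPM in dTPR/dTPR and 40.9 ± 25.3 CPM in wt/wt cortex (SD, n = 5 each), a log2 fold change of -0.18 ± 0.62 with an adjusted p of 0.999 in edgeR. Its highest library was dTPR/dTPR animal 2 at 68.3 CPM, while dTPR/dTPR animal 1, highest for Slc2a1, had 8.53 CPM. Sox17, a transcription factor of arterial endothelium, had 18 counts in all, Egfl7, a factor secreted by endothelium, had 16, and Abcb1a, the drug efflux pump of the barrier, had 11; none of them was tested. The summed level of the 6 readable endothelial genes ran from 74.1 to 221.8 CPM in dTPR/dTPR and from 85.6 to 235.4 CPM in wt/wt libraries. Without Slc2a1 these ranges were 8.53 to 81.0 CPM and 4.07 to 80.9 CPM, dTPR/dTPR first.

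Tagln was at 38.4, 139.8, 235.4, 154.5 and 139.9 CPM in dTPR/dTPR animals 1 to 5, against 96.6, 797.8, 165.7, 89.4 and 205.1 CPM in wt/wt animals 1 to 5. A single library, wt/wt animal 2, stood 3.39-fold above the highest of the other 9 and held 59.3% of the wt/wt counts of the gene. The other 4 wt/wt animals averaged 139.2 ± 55.8 CPM, close to the dTPR/dTPR mean of 141.6 ± 70.0 CPM. The log2 fold change was -0.94 ± 0.66 (SE; adjusted p = 0.999 in edgeR), and without wt/wt animal 2 it was 0.02 ± 0.41. The genotype value of Tagln therefore rested on wt/wt animal 2.

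Notch3 was at 27.0, 66.7, 39.5, 12.6 and 1.57 CPM in dTPR/dTPR animals 1 to 5, against 35.9, 86.2, 13.6, 41.4 and 45.2 CPM in wt/wt animals 1 to 5. The groups overlapped, and the value of dTPR/dTPR animal 5 was a single count. Its highest library was again wt/wt animal 2, but without a wide gap to the rest. The log2 fold change was -0.60 ± 0.66 (SE; adjusted p = 0.999 in edgeR), and it was -1.14 without dTPR/dTPR animal 2, -0.29 without dTPR/dTPR animal 5, -0.40 without dTPR/dTPR animal 4 and -0.20 without wt/wt animal 2. It had the same sign in each fit with a library left out.

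Smtn and Abcc9, the other mural genes with 10 or more counts besides Notch3, did not share the height of Tagln in wt/wt animal 2. Notch3 was highest there, at 86.2 CPM. Of the endothelial genes with few counts, Egfl7 had 11 of its 16 counts there, Sox17 4 of 18 and Abcb1a 0 of 11. Smtn, which encodes the smooth muscle protein smoothelin, averaged 285.4 ± 79.7 CPM in dTPR/dTPR and 247.4 ± 85.8 CPM in wt/wt cortex (SD, n = 5 each), with 297.8 CPM in wt/wt animal 2 and its maximum, 374.8 CPM, in dTPR/dTPR animal 2. Abcc9, a potassium channel subunit of pericytes that was not tested, was at 14.8 CPM in wt/wt animal 2 and highest in wt/wt animal 4 at 36.4 CPM. The summed level of the 8 readable mural genes ran from 305.7 to 598.8 CPM in dTPR/dTPR and from 311.3 to 1197 CPM in wt/wt libraries. Without Tagln and Notch3 it ran from 205.8 to 392.3 CPM and from 180.5 to 364.7 CPM, dTPR/dTPR first. Des, Mcam and Ndufa4l2 had a facing ID at 0 counts, and Acta2, Myh11, Pdgfrb and Rgs5 had no assigned facing ID.

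Among the genes of smooth muscle contraction and its SRF programme, 6 of 36 were tested, 1 had a positive and 5 a negative log2 fold change, and 0 passed in edgeR; their median was -0.28, against 0.00 over all 2019 tested genes. Vcl, which encodes the adhesion protein vinculin, averaged 1277 ± 84.8 CPM in dTPR/dTPR and 1642 ± 367 CPM in wt/wt cortex and was highest in wt/wt animal 2, at 2136 CPM. Its log2 fold change was -0.36 ± 0.16 (unadjusted p = 0.035 and adjusted p = 0.999 in edgeR). Actn1, an actin cross-linker, had -0.35 ± 0.29 and Cnn3, a calponin found in many cells, -0.22 ± 0.33. These genes are expressed in many cell types.

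For Notch signalling, 8 of 40 genes were tested, 1 with a positive and 7 with a negative log2 fold change, and 0 passed in edgeR; the median was -0.50. Dll1, a ligand of Notch receptors, averaged 26.3 ± 12.2 CPM in dTPR/dTPR and 53.2 ± 24.3 CPM in wt/wt cortex (SD, n = 5 each), a log2 fold change of -1.02 ± 0.49. Aph1a, a subunit of the protease that releases the receptor, was at -0.82 ± 0.48. Notch1, the receptor of neural progenitors and endothelium, was at -0.02 ± 0.20. Hes5, a target induced by the receptors in neural cells, averaged 150.3 ± 36.9 CPM in dTPR/dTPR and 274.6 ± 122.5 CPM in wt/wt cortex, with -0.87 ± 0.28 (unadjusted p = 0.0063 and adjusted p = 0.999 in edgeR). Like Notch3, Hes5 was highest in wt/wt animal 2, at 477.1 CPM, while Dll1 and Nrarp, a feedback inhibitor of the pathway, were highest in wt/wt animal 3. Wt/wt animals 3 and 2 also had the highest mean log2 CPM of 4 striatal genes, 10.4 and 9.85, against 6.25 to 8.72 in dTPR/dTPR animals and 7.49 to 9.20 in the other 3 wt/wt animals. With this striatal level in the model, the log2 fold change was 0.13 ± 0.42 for Slc2a1, -0.45 ± 0.83 for Tagln, -0.44 ± 0.76 for Notch3, -1.95 ± 1.16 for Kcnj13 and 1.08 ± 0.94 for Rarres2 (SE), so that those of Slc2a1 and Tagln moved towards 0 by more than 1.5 times.

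Kcnj13 had 0, 0, 40, 18 and 17 counts in dTPR/dTPR animals 1 to 5, against 12, 46, 9, 9 and 169 counts in wt/wt animals 1 to 5. As CPM this was 0, 0, 65.8, 22.6 and 26.7 in dTPR/dTPR and 18.7, 62.0, 12.2, 14.9 and 206.3 in wt/wt mice. Wt/wt animal 5 stood 12.3-fold above the median of the other 4 wt/wt animals and held 69.0% of the wt/wt counts, and the dTPR/dTPR libraries overlapped the remaining wt/wt ones. The level of 3 counts was 4.27 CPM in dTPR/dTPR animal 1 and 4.76 CPM in animal 2, and the 95% Poisson interval of 0 counts reached 3.69 counts. The log2 fold change was -1.46 ± 1.12 (SE; adjusted p = 0.999 in edgeR); it was -0.23 without wt/wt animal 5 and -2.33 without dTPR/dTPR animal 3.

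Slc4a2, which encodes a chloride-bicarbonate exchanger of the choroid plexus that many other epithelia use too, was the other tested gene of that list. It was at 79.6, 120.7, 98.8, 101.8 and 40.9 CPM in dTPR/dTPR animals 1 to 5, against 130.9, 70.1, 59.8, 102.6 and 213.6 CPM in wt/wt animals 1 to 5. Its highest library was the same as that of Kcnj13, wt/wt animal 5, but the rest of the order differed, and wt/wt animal 2, next below it for Kcnj13 among the wt/wt mice, was next to lowest of them for Slc4a2. Its log2 fold change was -0.39 ± 0.37 (adjusted p = 0.999 in edgeR). The summed level of the 3 readable choroid plexus genes ran from 67.6 to 164.6 CPM in dTPR/dTPR and from 72.0 to 419.9 CPM in wt/wt libraries. Without Kcnj13 these ranges were 40.9 to 120.7 CPM and 59.8 to 213.6 CPM, dTPR/dTPR first, all of it Slc4a2. Enpp2, an abundant enzyme of the choroid plexus, had a facing ID with 0 counts in every library, so it could not tell wt/wt animal 5 from the others. The part of choroid plexus tissue in the height of Kcnj13 was not tested.

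Of the other inward rectifier channels, Kcnj3, a neuronal channel opened by G proteins, averaged 880.0 ± 255.0 CPM in dTPR/dTPR and 689.0 ± 193.8 CPM in wt/wt cortex (SD, n = 5 each), a log2 fold change of 0.35 ± 0.24. Kcnj9, its partner subunit, was at -0.34 ± 0.66. Of the 15 listed channels 3 were tested, and 0 passed in edgeR.

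Rarres2 was at 1.42, 290.7, 52.7, 55.3 and 22.0 CPM in dTPR/dTPR animals 1 to 5, against 48.3, 27.0, 14.9, 33.1 and 70.8 CPM in wt/wt animals 1 to 5. The library of dTPR/dTPR animal 2, with 183 counts, stood 4.11-fold above the highest of the other 9 libraries, and dTPR/dTPR animal 1, with 1 count, was the lowest of all. The log2 fold change was 1.11 ± 0.88 (SE; adjusted p = 0.999 in edgeR). Without dTPR/dTPR animal 2 it was -0.23 ± 0.69, so the direction of Rarres2 rested on that animal.

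Another 3 ependymal list genes were highest in dTPR/dTPR animal 2. Dnah6, a dynein heavy chain of ciliary axonemes, was at 0, 66.7, 4.94, 20.1 and 18.9 CPM in dTPR/dTPR animals 1 to 5, against 21.8, 6.74, 0, 6.62 and 37.8 CPM in wt/wt animals 1 to 5. Spag17, a protein of the central pair of cilia, had 28 counts in all, of which 21 were in dTPR/dTPR animal 2, and it was not tested. Nnat, an imprinted gene that neurons express as well, was at 12197 CPM in dTPR/dTPR animal 2, against 1154 to 6952 CPM in the other dTPR/dTPR and 2007 to 7198 CPM in wt/wt libraries. Ccdc39, which sets the spacing of axonemal arms, did not follow: it was at 136.6 CPM in dTPR/dTPR animal 2 and highest in dTPR/dTPR animal 5, at 210.6 CPM.

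All 4 tested ependymal genes had a positive log2 fold change, with a median of 0.51 and 0 called in edgeR, where 50.2% of all tested genes were positive. The values were 0.58 ± 1.03 for Dnah6, 0.32 ± 0.70 for Nnat and 0.44 ± 0.34 for Ccdc39, beside 1.11 for Rarres2. Rarres2, Dnah6 and Nnat were each highest in dTPR/dTPR animal 2, so the shared sign leans on that library. Without it Rarres2 was at -0.23, and the values of the other genes without it are not given here. Rarres2 was also chosen with its height known. The summed level of the 8 readable ependymal genes ran from 1345 to 12725 CPM in dTPR/dTPR and from 2223 to 7310 CPM in wt/wt libraries, most of it Nnat. Zmynd10, which assembles dynein arms, had 14 of its 21 counts in wt/wt animal 4 and 1 in dTPR/dTPR animal 2, and Hydin had 4 counts in all. The part of ventricular tissue in dTPR/dTPR animal 2 was not tested.

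**Figure D2:**
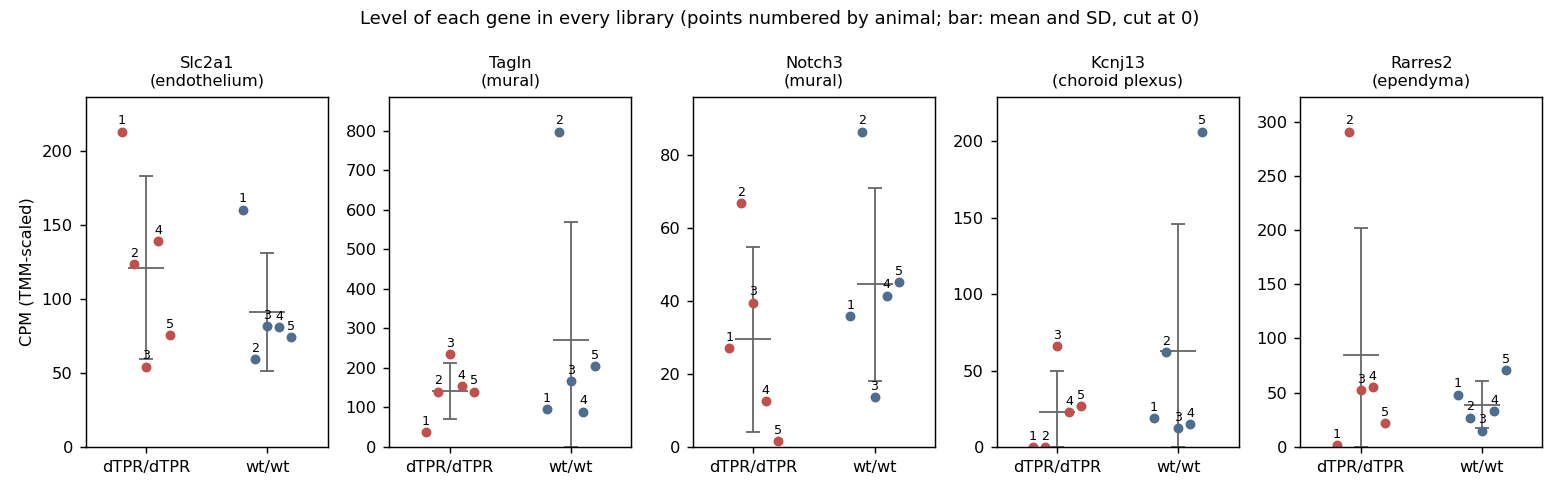
CPM of each gene in every library (points, numbered by animal), with the group mean and SD as a bar that ends at 0 where it would go below, dTPR/dTPR left and wt/wt right. Tagln in wt/wt animal 2 (797.8), Kcnj13 in wt/wt animal 5 (206.3) and Rarres2 in dTPR/dTPR animal 2 (290.7) lie far above all other libraries.

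The genotype comparison as a whole gave no call for these genes. Of the 5, 0 passed an adjusted p of 0.05 in edgeR, beside 0 of 2019 tested genes (0%), and 0 had an unadjusted p under 0.05, beside 2.82% of the tested genes. Limma-voom and DESeq2 called 0 of the 5 as well, both at the adjusted threshold and at an unadjusted p under 0.05. Groups without overlap were found for 0 of the 5 and for 0.347% of the tested genes. Absolute log2 fold changes of 1 or more were found in 2 of the 5, Kcnj13 and Rarres2, and in 4.36% of the tested genes; both were dominated by a single library. Over all tested genes the SE had a median of 0.42, below that of Tagln, Notch3, Kcnj13 and Rarres2.

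**Figure D3:**
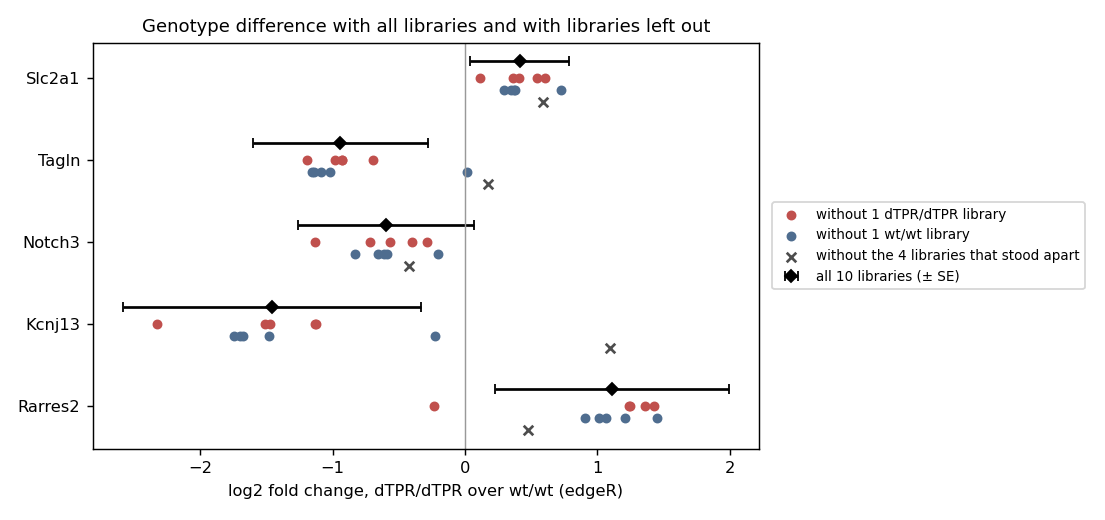
Log2 fold change of dTPR/dTPR over wt/wt from edgeR for each gene, with all libraries (diamond, bar: SE), with 1 library left out (circles) and without the 4 libraries in which a gene stood apart (cross). Tagln and Rarres2 change sign without a single library, and Kcnj13 without the 4.

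The spread between animals was wide for several of these genes. The coefficient of variation within dTPR/dTPR was 139.1% for Rarres2, 117.0% for Kcnj13, 85.8% for Notch3, 51.1% for Slc2a1 and 49.5% for Tagln, with a median of 37.3% over all tested genes. Within wt/wt it was 131.7% for Kcnj13, 110.2% for Tagln, 59.4% for Notch3, 55.5% for Rarres2 and 43.4% for Slc2a1, with a median of 38.9%. Low counts alone widen this measure, and its part was not tested. A library counted as standing apart when its gap to the next exceeded 0.71 of the range of its group of 5. This held for Rarres2 in dTPR/dTPR animal 2 and for Slc2a1, Tagln and Kcnj13 in wt/wt animals 1, 2 and 5, and upwards for 5.45% of all tested genes in dTPR/dTPR and 4.95% in wt/wt mice. The 5 genes were chosen with these heights known, so the number is a description.

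Genes of other kinds were also high in these 4 libraries. In wt/wt animal 2, 24 of the tested genes stood apart upwards, and Tagln exceeded the highest of the other 9 libraries by more than any other tested gene, 1.75 on the log2 scale. It was followed by Cd72, a receptor of B cells (1.25), Mpzl2, an epithelial adhesion protein (1.08), Unc45b, a myosin chaperone of striated muscle (1.04), and Slc6a20a, a proline transporter (0.97). In wt/wt animal 5, where 24 genes stood apart, Kcnj13 ranked second (1.61) behind the counts assigned to mt-Co1 (2.47) and was followed by Atp2a1, a calcium pump of muscle (1.40), Rab24 (1.12) and Bad (0.98).

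In dTPR/dTPR animal 2, with 42 such genes, the most of any library, Rarres2 also ranked second (1.99). Gm43398 (2.31) came before it, and Gm43579 (1.91), Ankrd34b (1.52) and Baiap3 (1.26) came after it. In wt/wt animal 1, with 13 such genes, Slc2a1 was below dTPR/dTPR animal 1, and the largest excesses were those of 0610030E20Rik (0.99), Gm42456 (0.95), the deep-layer cortical gene Tshz2 (0.81), Preb (0.77) and the calcium channel gene Cacna1d (0.74).

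**Figure D4:**
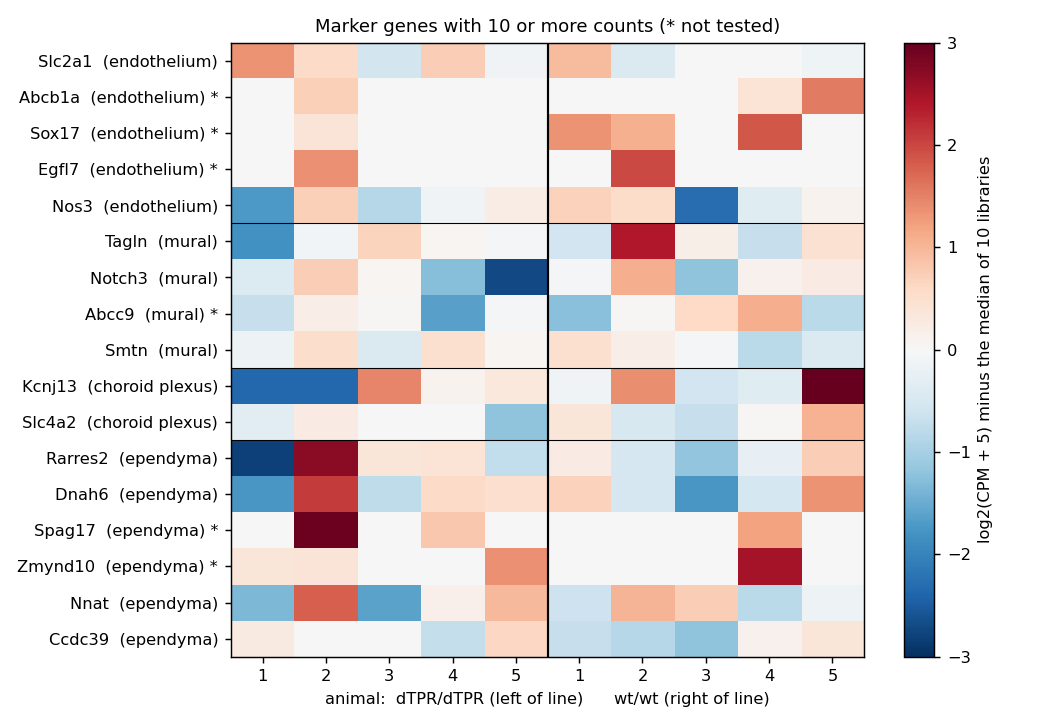
Each cell is log2(CPM + 5) of a marker gene in a library minus the median of the 10 libraries, with colours limited at 3 either way, dTPR/dTPR animals left and wt/wt animals right, and an asterisk where a gene was not tested. Rarres2, Dnah6, Spag17 and Nnat are highest in dTPR/dTPR animal 2, and Kcnj13 and Slc4a2 in wt/wt animal 5.

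Genes with the most similar pattern were found by Pearson's r of log2 CPM over the 10 libraries, as a description; the libraries share depth and, as shown, single high values weigh heavily. Rarres2 was closest to Mrnip (r = 0.89), Dnah6 (r = 0.84) and Gnas (r = 0.83), each highest in dTPR/dTPR animal 2. Tagln was closest to A430027H14Rik (r = 0.86), the G protein subunit gene Gng3 (r = 0.83) and Pusl1 (r = 0.81), each highest in wt/wt animal 2. Notch3 was closest to Col4a3bp (r = 0.87), Coro1c (r = 0.86) and Mfrp (r = 0.82), none of them highest in wt/wt animal 2. Slc2a1 was closest to Id4 (r = 0.80) and Got2 (r = 0.79). Kcnj13 was closest to the counts assigned to Ncor1 (r = 0.86), to Mettl9 (r = 0.83) and to Dleu2 (r = 0.80), and the Ncor1 counts lie at IDs of its neighbours Ttc19 and Pigl. Spearman's rho of the genes named here ran from 0.61 to 0.91.

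The remaining pathway lists around these genes gave no call either. Of 34 genes of glucose and monocarboxylate transport and glycolysis, 7 were tested, 4 with positive and 3 with negative log2 fold changes, a median of 0.12 and 0 called in edgeR. Besides Slc2a1, Gpi1, the isomerase of the second glycolytic step, was at 0.18 ± 0.20, Pfkp, a phosphofructokinase, at -0.38 ± 0.25, and Txnip, an inhibitor of glucose uptake, at 0.12 ± 0.39. Slc2a12, another glucose transporter, was at -0.16 ± 0.70, and Hif1a, the oxygen-regulated transcription factor, at 0.38 ± 0.53. The largest change of the list was that of Tpi1, triosephosphate isomerase, which averaged 14.0 ± 15.1 CPM in dTPR/dTPR and 37.4 ± 13.0 CPM in wt/wt cortex (SD, n = 5 each). Its log2 fold change was -1.41 ± 0.68 (unadjusted p = 0.055 and adjusted p = 0.999 in edgeR). Of 22 genes of chemerin and the retinoid response, 2 were tested, and no ID was assigned to the chemerin receptor genes Cmklr1, Gpr1 and Ccrl2. Few meningeal and fibroblast markers could be read: of 23, Fn1 with 32 counts in all was the 1 counted at an assigned facing ID. The list reached 18.5 CPM at most in dTPR/dTPR and 14.9 CPM in wt/wt libraries.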

How the data were processed

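RNA-seq counts per gene ID were deposited by the authors, 1 table of 53090 IDs per mouse, from single-end poly(A)-tailed SENSE Total RNA-Seq libraries per the labels' protocols; the submitters' processing notes name TopHat, HTSeq, DESeq2 and GRCm38.p5. Versions and the strand setting are not given in the sources used here. IDs were placed on GENCODE M21 (52403 matched), and 8188 IDs were assigned to 7385 genes on the other strand, each holding at least 90% of the facing exon bases; these held 88.0% of the counts. The assignment rests on positions, not on reads. Counts were summed per gene and fitted in R 4.3.3 with edgeR 4.0.16 (filterByExpr, TMM factors, quasi-likelihood test, Benjamini-Hochberg adjustment over 2019 genes, both groups, no covariates). CPM use TMM-scaled library sizes; log2 CPM for likeness used a prior count of 2. Limma 3.58.1 and DESeq2 1.42.0 were alternatives, with other filters, scalings, assignments, age or the striatal level in the model, and fits that each omitted 1 animal. The fit was also run on simulated counts, where it called 12.3% of genes changed 1.5-fold, 31.7% of those changed 2-fold and 71.0% of those changed 4-fold. Most 2-fold changes were thus missed. Totals were 667751 to 927242 counts, which limits genes with few counts.

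The members and gene lists were chosen with earlier results of these data known. Named genes were the 5 members, the tested genes of each list (for tissue lists also those with at least 10 counts, at most 4), the 3 most similar genes per member, the 5 genes with the largest excess in each library that stood apart, and the IDs counted; list genes named for counts of 0 or few counts were chosen after their values were seen. Same-numbered animals of the 2 groups correlated at -0.11 to 0.10, so numbers were not treated as pairs. Some genes that this rule names, and the Slc2a1 sequence, are not reported here.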

Additional observations from a re-analysis of the deposited data

Results flagged for a closer look

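In a group of 5 libraries, 10 values stood apart from the nearest by more than 0.71 of the range of their group, among 80 groups of 40 genes. Chance passes this threshold in about 1 in 20 groups of normally distributed values; over all 2019 tested genes, 110 stood high and 38 low in dTPR/dTPR, and 100 high and 30 low in wt/wt mice. The first 4 values below belong to genes chosen with these heights known, so the number of values says nothing about how unusual they are. Among the vessel, choroid plexus and ependyma genes these were Rarres2 in dTPR/dTPR animal 2 (290.7 CPM), Slc2a1 in wt/wt animal 1 (160.5 CPM), Tagln in wt/wt animal 2 (797.8 CPM) and Kcnj13 in wt/wt animal 5 (206.3 CPM). Further high values were Aldh1l1, an astrocyte gene, in dTPR/dTPR animal 3 (222.2 CPM), Ccn2, a matrix-associated growth factor gene, in wt/wt animal 2 (1028 CPM), Tshz2 in wt/wt animal 1 (8716 CPM) and Dll1 in wt/wt animal 3 (95.1 CPM). Low values that stood apart were Snw1, a Notch co-regulator, in dTPR/dTPR animal 1 (142.2 CPM) and Kcnj3 in dTPR/dTPR animal 2 (427.3 CPM).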

How the results depend on the processing

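None of the 5 genes was called in 22 alternatives each, with a lowest adjusted p of 0.72 for Slc2a1 without the filter. Over all genes 0 were called, except 2 without the filter (Fam184b and Prox1os) and 1 without dTPR/dTPR animal 2 and wt/wt animals 1, 2 and 5 (Fam184b), a setting chosen after seeing the data; unadjusted p under 0.05 was found for 15 to 542 genes. With 1 animal left out the log2 fold changes ran from 0.11 to 0.72 for Slc2a1, -1.19 to 0.02 for Tagln, -1.14 to -0.20 for Notch3, -2.33 to -0.23 for Kcnj13 and -0.23 to 1.45 for Rarres2. The sign turned for Tagln without wt/wt animal 2 (0.018), for Rarres2 without dTPR/dTPR animal 2 (-0.23) and in limma-voom with quality weights (-0.11), and, without those 4 animals, for Tagln (0.17) and Kcnj13 (1.10); for limma-voom the cause was not tested. Limma-voom also gave 0.21 for Slc2a1, -0.41 for Tagln and -1.31 for Notch3, and the striatal level in the model 0.13 for Slc2a1 and -0.45 for Tagln. With the replicate block 0 genes were called, with 0.35 for Slc2a1, -0.59 for Tagln, -0.86 for Notch3, -1.74 for Kcnj13 and 0.27 for Rarres2. Asking that at least 50% of the ID be shared left none of the 5, since Tagln had the largest share, 48.9%; 379 genes were then tested and 0 called. Where a library held 0 or 1 count, as for Kcnj13, Notch3 and Rarres2 in some dTPR/dTPR mice, its value lies below the level of 3 counts.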

Other observations

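The library of dTPR/dTPR animal 1 was the highest library for Slc2a1 (213.3 CPM) and the lowest for Tagln (38.4 CPM) and Rarres2 (1.42 CPM). It had 0 counts of Kcnj13, as had dTPR/dTPR animal 2, and of Dnah6, as had wt/wt animal 3. Of 18 blood cell markers, 16 had no assigned facing ID and could not be read, so blood content could not be judged. Cd3e was the 1 counted at a facing ID, and the list reached 19.9 CPM in dTPR/dTPR and 5.39 CPM in wt/wt libraries. The own IDs of Notch3 and Rarres2 held 347 and 352 counts in dTPR/dTPR and 472 and 453 counts in wt/wt libraries. Those of Tagln and Slc2a1 held 250 and 37 counts in dTPR/dTPR and 227 and 38 counts in wt/wt libraries. For these genes counts lay at IDs of both strands, and whether they came from the shared bases was not tested.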
